A study of Mus musculus with 13 samples.

Results

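The genes described here are 38 subunits of the mouse proteasome and Nfe2l1, the transcription factor that controls their genes, 39 of the 55357 genes in the deposited count table of brown adipose tissue. They were picked by name, and all 39 were found in the table and had enough counts to be tested. The subunits comprise 7 of the alpha ring (Psma1 to Psma7), 7 of the constitutive beta ring (Psmb1 to Psmb7), 3 immunoproteasome beta subunits (Psmb8 to Psmb10), 6 ATPases of the regulatory particle (Psmc1 to Psmc6), 11 non-ATPase subunits of the same particle (Psmd genes) and 4 alternative activators (Psme1 to Psme4). The 31 constitutive subunits below are the alpha ring, the constitutive beta ring, the ATPases and the non-ATPase subunits.

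The study compared mice with floxed Stim1 and Stim2 alleles (Stim1/2_fl/fl, control) with mice that carry Cre under the adiponectin promoter (Stim1/2_Adp-Cre, KO), either at room temperature (RT) or after 6 h at 4 °C (cold). Stim1 and Stim2 are the endoplasmic reticulum calcium sensors that open the store-operated calcium channel. The series text calls the controls wild type, while their sample labels give the floxed alleles. The adiponectin promoter acts in adipocytes, so other cells of the tissue keep both genes. There were 2 control RT, 4 control cold, 3 KO RT and 4 KO cold libraries, all with 1 batch label. The labels used here give neither age nor sex, and do not say whether each library is a different animal, which means that the p-values below reflect the variation among these libraries and that this variation may be technical.

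The proteasome is the protease of the cytosol and nucleus that degrades ubiquitin-tagged proteins. Its barrel-shaped core holds catalytic beta subunits between gated alpha rings, and a regulatory particle with an ATPase ring and a lid binds, unfolds and de-ubiquitinates the substrate. NFE2L1 is made at the endoplasmic reticulum, is degraded there when proteasome capacity is sufficient, and otherwise is processed and moves to the nucleus, where it switches on proteasome genes through antioxidant response elements; in brown fat it is known as a factor that sustains proteasome capacity in cold-exposed animals. Interferon-gamma replaces the catalytic subunits PSMB5, PSMB6 and PSMB7 by PSMB8, PSMB9 and PSMB10 and raises the PSME1-PSME2 activator ring, which alters the peptides made for MHC class I presentation.

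RefSeq promoter sequence (build GRCm38.p6, 250 bases before to 50 after each annotated start) was at hand for 33 of the 39 genes. The core of the antioxidant response element, TGACNNNGC on either strand, which shares the letters TGAC with the AP-1 and cAMP response motifs, was found in 5 of the 33 (15.2%), Psmb5, Psmb6, Psmc6, Psmd12 and Psme4, against 14% of the 27025 genes with such a window. It was found in none of the 5 windows of Nfe2l1. The letters TTCNNNGAA of the gamma-activated site, which read the same on both strands, were found in 2 of 33 (6.06%), Psmb8 and Psmd2, against 9.55% of all genes. The letters GAAANNGAAA of the interferon-stimulated response element, on either strand, were found in 3 of 33 (9.09%), Psmb3, Psmd4 and Psme1, against 3.99%. The last 2 motifs were searched after the values below had been seen. A match is a run of letters, not a measured binding site. The windows below show the match of a core catalytic subunit, an ATPase, a lid subunit and an immunoproteasome subunit, members whose levels are given further on. Each is written 5′ to 3′ in the direction of the gene, with the matched letters in capitals.
Psmb5, chr14:54618014-54618062, minus strand, match 47 to 39 bases before the start: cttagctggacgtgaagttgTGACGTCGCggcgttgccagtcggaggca
Psmc6, chr14:45329577-45329625, plus strand, match 227 to 219 bases before the start: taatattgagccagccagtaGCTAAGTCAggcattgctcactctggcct
Psmd12, chr11:107479278-107479309, plus strand, match 247 to 239 bases before the start: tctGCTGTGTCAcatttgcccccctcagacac
Psmb8, chr17:34198078-34198126, plus strand, match 97 to 89 bases before the start: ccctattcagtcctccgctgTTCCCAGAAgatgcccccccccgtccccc

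Libraries held 1570684 to 2016178 counts, of which the 39 genes took 0.498% to 0.668%. Levels are scaled CPM, a gene's counts divided by the library's scaled total; reads come from the 3′ ends of transcripts, and levels are compared only between libraries of the same gene. Of the targeted genes, Stim1 was at 132 to 162 CPM (unscaled) in control RT and 66.4 to 88.8 CPM in KO RT, and at 103.1 to 125 CPM in control cold and 78.6 to 106 CPM in KO cold, where the groups overlapped. Stim2 was at 31.2 to 42.3 CPM and 21.7 to 27.1 CPM at RT, control and KO in turn, and at 28.4 to 50.9 CPM and 13.1 to 29.7 CPM in the cold, again with overlap. Tags from transcript 3′ ends need not lie in the deleted exons, and the tissue is not all adipocytes, which limits this as a test of the labels. The brown adipocyte markers (8 genes, Ucp1 and Adipoq among them) summed to 16663 to 18730 CPM in the 5 RT libraries and 21539 to 26749 CPM in the 8 cold libraries. The labelled tissue thus carried its defining transcripts, with a higher sum in the cold. Of the 8 genes 2 were called higher with cold and 6 did not pass, in control and in KO alike. Over all genes tested, 12.7% and 9.43% were called higher. The part of these markers in the cold responses below was not tested. Skeletal muscle markers stood apart in 3 RT libraries: 6 genes summed to 1530 CPM in control RT 1, 925 in KO RT 1 and 594 in KO RT 2, against 12.7 in control RT 2, 48.3 in KO RT 3 and 0.612 to 189 in the cold libraries. Counts of calls between cold and RT, for the members and for most lists around them, are therefore also given without those 3 libraries. This leaves 1 RT library per genotype, assumed to vary like the other groups.

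In the cold, transcripts of the constitutive proteasome were higher than at RT in control tissue, while those of the interferon-inducible subunits were lower. Of the 31 constitutive subunits, 16 rose, 0 fell and 15 did not pass (edgeR quasi-likelihood test, adjusted p under 0.05 over 11073 genes). Of the 5 interferon-inducible members Psmb8, Psmb9, Psmb10, Psme1 and Psme2, all 5 fell. Among all genes tested 12.7% were called higher and 12.6% lower in this comparison. The median log2 fold change was 0.45 over the 31 subunits, with 29 positive, and -0.92 over the 5 inducible members, against -0.02 over all genes tested.

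In KO tissue the cold response ran in the same directions. Of the 31 constitutive subunits, 11 rose, 0 fell and 20 did not pass, and 4 of the 5 inducible members fell, against 9.43% of all genes called higher and 9.45% called lower. The medians were 0.34, with 28 of 31 positive, and -0.55, against -0.01 over all genes. The genotypes share no libraries, though the fit gives them 1 estimate of the spread. Of the higher calls 9 were shared, 56.2% of the 16 in control and 81.8% of the 11 in KO: Psma1, Psmb4, Psmc2, Psmc4, Psmc5, Psmd4, Psmd7, Psmd11 and Psmd12. Over all genes tested, the shared higher calls were 51.3% of the control calls and 68.9% of the KO calls. The 4 lower calls in KO, Psmb8, Psmb9, Psme1 and Psme2, were all among the 5 in control. Over all genes tested, the shared lower calls were 51.4% of the control calls and 68.4% of the KO calls.

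Calls of single constitutive subunits rested on the few RT libraries. Without control RT 1, 3 of the control calls were left (Psmb2, Psmc2 and Psmd12), in a fit that called 4.58% of all genes higher, and without control RT 2, 9 members were called higher. Without KO RT 1 or KO RT 2, 7 and 6 members were called higher in KO. Those fits called 5.56% and 6.89% of all genes higher, against 9.43% with all libraries. Without the 3 muscle-rich libraries 2 members were called higher in control (Psmb2 and Psmc4) and 0 in KO, in fits that called 3.74% and 1.98% of all genes higher. Over the 5 inducible members the median log2 fold change there was -1.15 in control and -0.54 in KO, with all 5 negative in both. The 1 control RT library left there was control RT 2, where the 5 inducible members summed to 303 CPM, against 257 CPM in control RT 1. What that higher level adds to the control value was not tested. In the fits without the 3 muscle-rich libraries the median over the 31 subunits was 0.50 in control, with 29 positive, and 0.24 in KO, with 24 positive. The summed level of the 31 subunits was 4408 and 4557 CPM in control RT and 5298 to 6794 CPM in control cold, and the groups did not overlap. It was 4045 to 4748 CPM in KO RT and 5041 to 5830 CPM in KO cold, again without overlap. In the 2 RT libraries poor in muscle transcripts, control RT 2 and KO RT 3, the sums were 4557 and 4748 CPM, below every cold library.

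**Figure D1:**
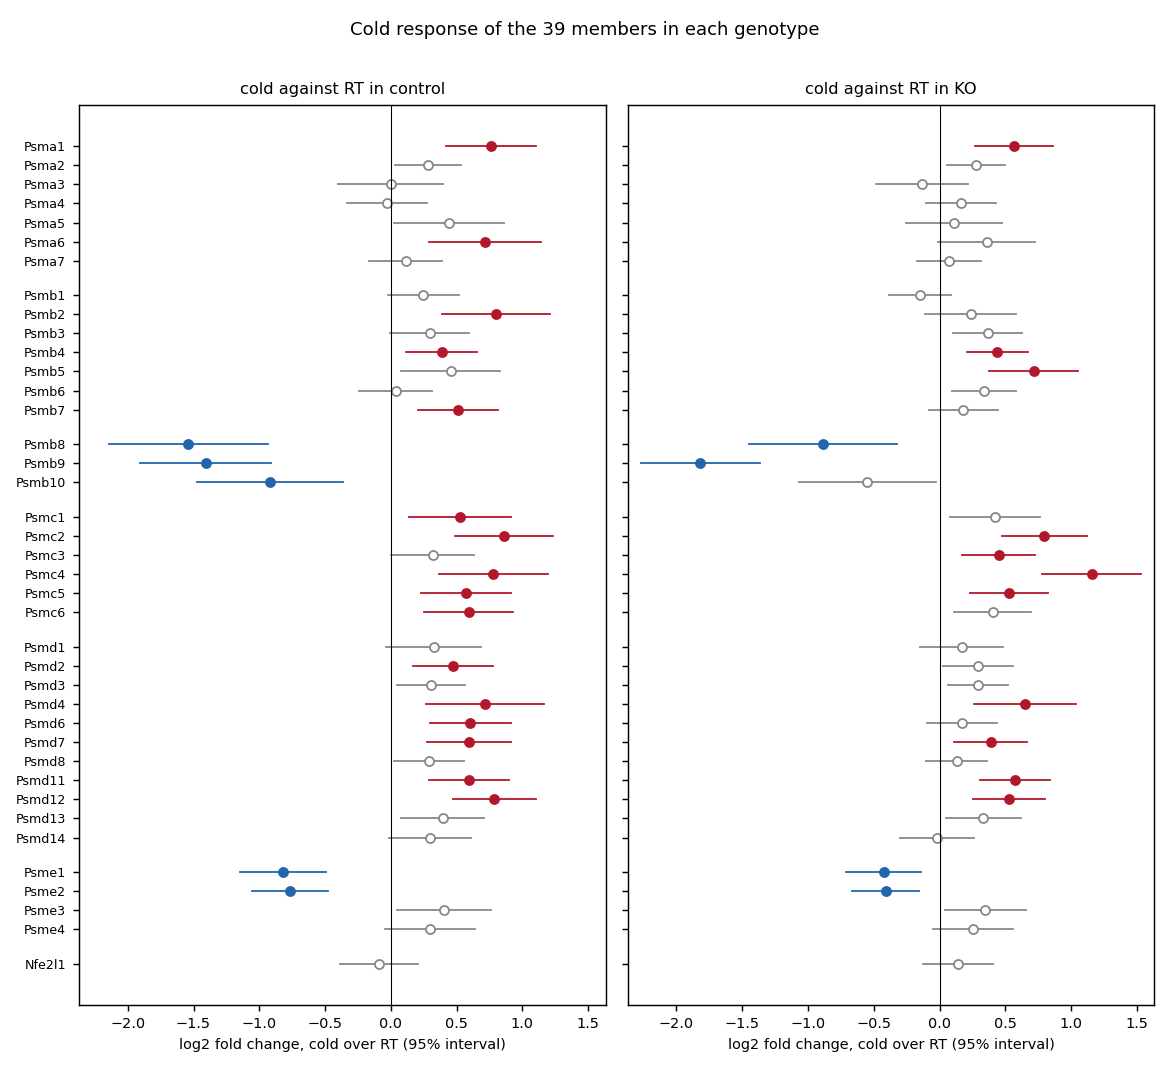
Log2 fold change of cold over RT (x axis) with its 95% interval for the 39 genes (y axis, grouped by role), in control (left) and KO (right). Filled red points were called higher, filled blue points lower, and open grey points did not pass the test. Most constitutive subunits sit right of 0, with 16 called in control and 11 in KO, and Psmb8, Psmb9, Psmb10, Psme1 and Psme2 sit left of it in both panels.

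Nfe2l1 (ENSMUSG00000038615.18, chromosome 11) itself did not pass the test in any comparison. It stood at 174 and 179 CPM in control RT and at 169, 174, 177 and 143 CPM in control cold. In KO it stood at 182, 169 and 161 CPM at RT and at 191, 201, 208 and 152 CPM in the cold. The 4 groups overlapped, with the lowest library in control cold and the highest in KO cold. The log2 fold change of cold over RT was -0.09 in control (95% interval -0.39 to 0.21, adjusted p = 0.681) and 0.14 in KO (-0.12 to 0.40, adjusted p = 0.471). KO over control was 0.18 in the cold (-0.06 to 0.42, adjusted p = 0.41) and -0.05 at RT (-0.36 to 0.26, adjusted p = 1). These are transcript levels; processing of the NFE2L1 protein was not measured.

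The alpha ring forms the gate of the core particle. In control cold 2 of its 7 genes rose, Psma1 and Psma6, and in KO cold 1 rose, Psma1. Psma1 stood at 277 and 309 CPM in control RT and at 479.8, 489, 413 and 606 CPM in control cold. The KO libraries had 301, 296 and 318 CPM at RT and 542, 376, 419 and 473 CPM in the cold. Every cold library lay above every RT library, whichever the genotype. The log2 fold change was 0.76 ± 0.16 (SE) in control (adjusted p = 0.00297) and 0.57 ± 0.14 in KO (adjusted p = 0.00951).

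Psma6, another gate-ring subunit, stood at 174 and 192 CPM in control RT and at 272, 392, 212 and 323 CPM in control cold. KO tissue held 186, 153 and 207 CPM at RT and 244, 212, 210.4 and 266 CPM in the cold. Cold and RT libraries did not overlap within either genotype, but the lowest control cold library was near the highest RT ones. Cold over RT was, as a log2 fold change, 0.71 ± 0.20 in control (adjusted p = 0.0165) and 0.36 ± 0.17 in KO (adjusted p = 0.169). The other 5 alpha genes had log2 fold changes of cold over RT from -0.03 (Psma4) to 0.44 (Psma5) in control and from -0.13 (Psma3) to 0.27 (Psma2) in KO.

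In the constitutive beta ring 3 of 7 genes rose in control cold (Psmb2, Psmb4 and Psmb7) and 2 in KO cold (Psmb4 and Psmb5). Psmb5 encodes the subunit with chymotrypsin-like activity, the target of bortezomib. Psmb5 stood at 54.3 and 39.2 CPM in control RT and at 74.3, 71.1, 58.9 and 52.9 CPM in control cold. Among KO libraries it was 37.99, 43.0 and 39.9 CPM at RT and 75.3, 60.0, 61.9 and 67.7 CPM in the cold. The control groups overlapped by 1 library and the KO groups did not. Its log2 fold change was 0.45 ± 0.18 in control (adjusted p = 0.0741) and 0.71 ± 0.16 in KO (adjusted p = 0.0048).

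Psmb7, the subunit with trypsin-like activity, stood at 189 and 171 CPM in control RT and at 252, 284, 244 and 244 CPM in control cold. In KO it stood at 223, 179 and 233 CPM at RT and at 269, 208, 228 and 255 CPM in the cold. The control groups were apart and the KO groups overlapped. On the log2 scale the change was 0.51 ± 0.14 in control (adjusted p = 0.0168) and 0.18 ± 0.12 in KO (adjusted p = 0.339). Psmb6, which carries the caspase-like activity, had 0.04 ± 0.13 in control (adjusted p = 0.865) and 0.34 ± 0.12 in KO (adjusted p = 0.0502).

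Psmb2 and Psmb4 are beta subunits without a catalytic site. Psmb2 stood at 42.3 and 31.9 CPM in control RT and at 72.6, 64.3, 65.7 and 57.9 CPM in control cold. The KO libraries had 54.2, 44.8 and 50.9 CPM at RT and 67.3, 44.3, 68.1 and 56.4 CPM in the cold. Control cold lay wholly above control RT, while the lowest KO cold library lay below all 3 KO RT libraries. The log2 fold change was 0.80 ± 0.19 in control (adjusted p = 0.00656) and 0.24 ± 0.16 in KO (adjusted p = 0.343).

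Psmb4 stood at 233 and 263 CPM in control RT and at 305, 313, 309.7 and 369 CPM in control cold. KO tissue held 250.2, 223 and 248 CPM at RT and 338, 299, 352 and 314 CPM in the cold. All 8 cold libraries lay above all 5 RT libraries. Cold over RT was, as a log2 fold change, 0.39 ± 0.13 in control (adjusted p = 0.0343) and 0.44 ± 0.11 in KO (adjusted p = 0.0106). The control call was lost without control cold 4 (the highest of its group) or control RT 1, and the KO call without KO RT 2.

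The ATPase ring unfolds substrates and opens the alpha gate. It had the highest share of calls of any constitutive group: 5 of 6 genes rose in control cold (all but Psmc3) and 4 of 6 in KO cold (Psmc2, Psmc3, Psmc4 and Psmc5), and all 6 fold changes were positive in both genotypes. Psmc4 stood at 44.1 and 40.4 CPM in control RT and at 63.9, 80.9, 65.7 and 80.5 CPM in control cold. Among KO libraries it was 30.4, 20.1 and 37.3 CPM at RT and 67.9, 63.6, 70.9 and 59.8 CPM in the cold. KO RT was the lowest group, control RT lay just above it, and every cold library was higher. Its log2 fold change was 0.78 ± 0.20 in control (adjusted p = 0.00854) and 1.16 ± 0.18 in KO (adjusted p = 0.000327), the largest rise of any member in KO.

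Psmc2, another ATPase of the ring, stood at 75.4 and 82.6 CPM in control RT and at 135, 132, 120.2 and 186 CPM in control cold. In KO it stood at 79.0, 69.4 and 80.8 CPM at RT and at 129.7, 141, 147 and 114 CPM in the cold. The cold and RT libraries were well apart in both genotypes. On the log2 scale the change was 0.86 ± 0.18 in control (adjusted p = 0.00226), the largest rise of any member there, and 0.80 ± 0.15 in KO (adjusted p = 0.00178).

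Psmc5 stood at 63.9 and 67.5 CPM in control RT and at 83.5, 97.0, 94.8 and 115 CPM in control cold. The KO libraries had 61.8, 63.7 and 80.3 CPM at RT and 108, 92.9, 91.1 and 104 CPM in the cold. No cold library reached down to an RT library, although KO RT 3 came close. The log2 fold change was 0.57 ± 0.16 in control (adjusted p = 0.0172) and 0.53 ± 0.14 in KO (adjusted p = 0.0141).

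Psmc6, whose promoter match is printed above, stood at 206 and 191 CPM in control RT and at 285, 309.5, 239.7 and 366 CPM in control cold. KO tissue held 198, 174 and 225 CPM at RT and 275, 276, 269 and 233 CPM in the cold. The groups did not overlap, and KO cold 4 lay well below the other 3 of its group. Cold over RT was, as a log2 fold change, 0.59 ± 0.16 in control (adjusted p = 0.0128) and 0.40 ± 0.14 in KO (adjusted p = 0.0527). Of the remaining ATPases, Psmc1 had 0.53 ± 0.18 in control (adjusted p = 0.0449, lost without any of 8 single libraries) and 0.42 ± 0.16 in KO (adjusted p = 0.0799), and Psmc3 had 0.32 ± 0.15 (adjusted p = 0.131) and 0.45 ± 0.13 (adjusted p = 0.0248).

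The non-ATPase subunits make up the base scaffold and the lid, which recognise ubiquitin chains and cut them off. In control cold 6 of 11 rose (Psmd2, Psmd4, Psmd6, Psmd7, Psmd11 and Psmd12) and all 11 fold changes were positive, from 0.29 to 0.79. In KO cold 4 rose (Psmd4, Psmd7, Psmd11 and Psmd12) and 10 were positive. Psmd12, a lid scaffold subunit whose promoter match is printed above, stood at 79.5 and 89.2 CPM in control RT and at 122, 164, 135 and 161 CPM in control cold. Among KO libraries it was 79.0, 87.2 and 83.5 CPM at RT and 127, 117, 125 and 112 CPM in the cold. The RT groups overlapped and both cold groups were above them. Its log2 fold change was 0.79 ± 0.15 in control (adjusted p = 0.0013) and 0.53 ± 0.13 in KO (adjusted p = 0.00879).

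Psmd11, a lid subunit that braces the lid against the core, stood at 108 and 118 CPM in control RT and at 181, 165, 149 and 187 CPM in control cold. In KO it stood at 98.8, 104 and 112 CPM at RT and at 164, 150.3, 134 and 176 CPM in the cold. All cold libraries were above all RT libraries. On the log2 scale the change was 0.59 ± 0.14 in control (adjusted p = 0.00676) and 0.57 ± 0.13 in KO (adjusted p = 0.00461).

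Psmd4, a receptor for ubiquitin chains, stood at 171 and 189.8 CPM in control RT and at 320.2, 274, 193 and 396 CPM in control cold. The KO libraries had 173, 182 and 218 CPM at RT and 327, 257, 314 and 301 CPM in the cold. Control cold 3 lay just above control RT, and the other cold libraries were far above it. The log2 fold change was 0.72 ± 0.21 in control (adjusted p = 0.0206) and 0.65 ± 0.18 in KO (adjusted p = 0.0197).

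Psmd7, the lid partner of the deubiquitinase Psmd14, stood at 84.6 and 90.4 CPM in control RT and at 131, 132, 104 and 161 CPM in control cold. KO tissue held 94.7, 100.4 and 97.6 CPM at RT and 132, 130.4, 125 and 124 CPM in the cold. The KO cold libraries were close together and above every RT library. Cold over RT was, as a log2 fold change, 0.59 ± 0.15 in control (adjusted p = 0.00978) and 0.39 ± 0.13 in KO (adjusted p = 0.049), and the KO call was lost when any of 9 single libraries was left out. Psmd2, a scaffold subunit of the base, had 0.48 ± 0.14 in control (adjusted p = 0.0234) and 0.29 ± 0.13 in KO (adjusted p = 0.118).

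**Figure D2:**
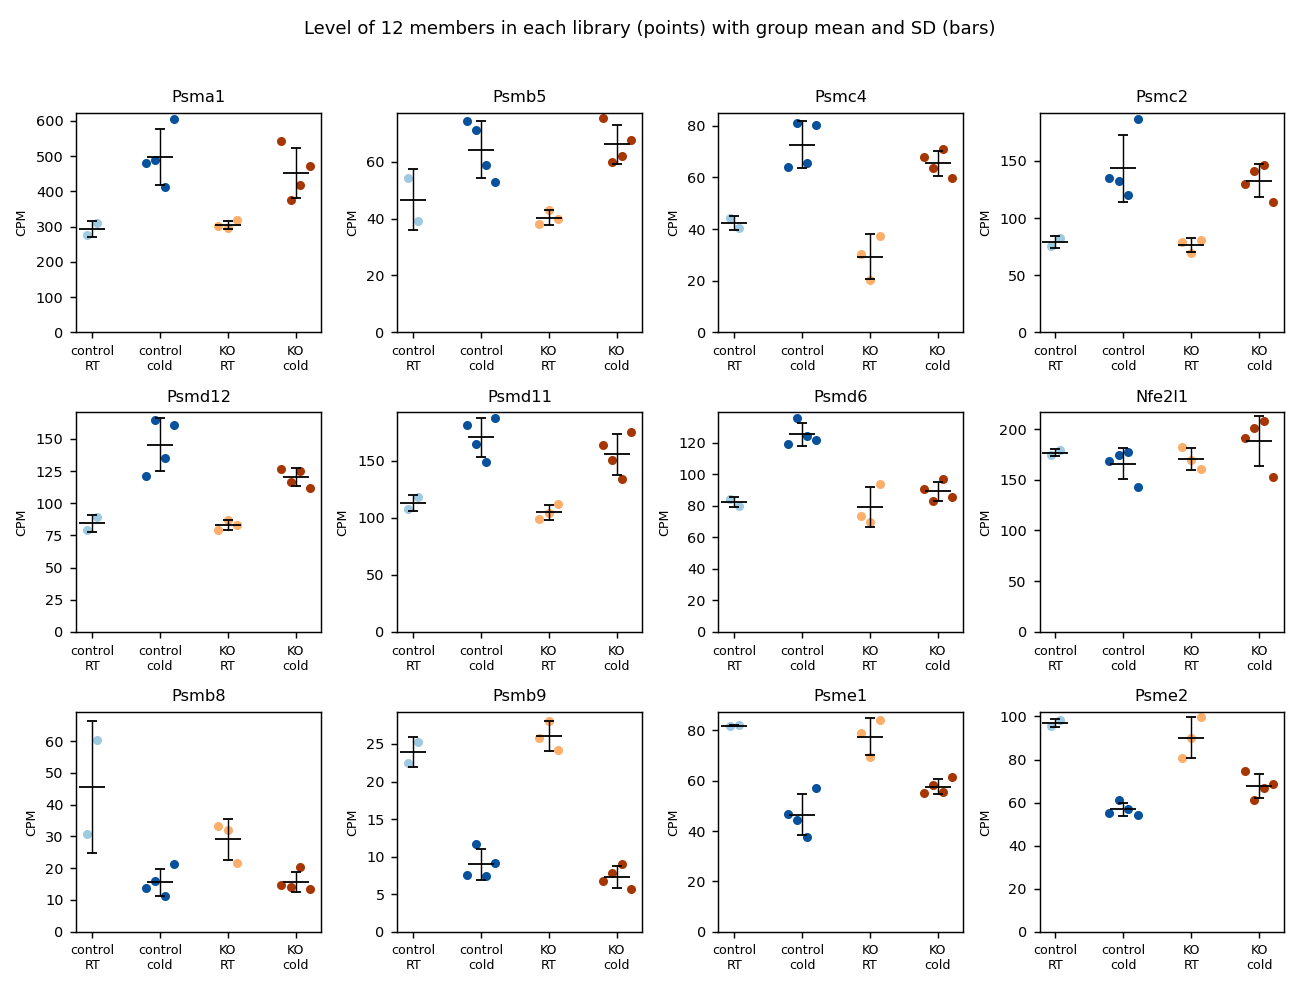
Level in CPM (y axes, from 0) of 12 of the genes in each library (points), with the group mean and SD as bars, for control RT, control cold, KO RT and KO cold (x axes). Psma1, Psmc4, Psmc2, Psmd12 and Psmd11 have every cold library above every RT library, Nfe2l1 has overlapping groups, and Psmb9, Psme1 and Psme2 have every cold library below every RT library.

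The immunoproteasome subunits went the other way. Psmb9 stood at 22.5 and 25.3 CPM in control RT and at 7.49, 11.7, 7.43 and 9.18 CPM in control cold. Among KO libraries it was 25.8, 28.1 and 24.1 CPM at RT and 6.73, 7.83, 9.001 and 5.64 CPM in the cold. RT libraries of both genotypes were at least 22.5 CPM and no cold library exceeded 11.7 CPM. These levels rest on 42 to 51 counts per RT library and 10 to 19 per cold library. Cold was 2.65-fold lower in control (log2 -1.41 ± 0.24, adjusted p = 0.000526) and 3.53-fold lower in KO (log2 -1.82 ± 0.21, adjusted p = 3.65e-05), and both calls held without any single library and without the 3 muscle-rich libraries.

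Psmb8, the counterpart of Psmb5, stood at 30.8 and 60.3 CPM in control RT and at 13.8, 16.1, 11.2 and 21.2 CPM in control cold. In KO it stood at 33.4, 32.1 and 21.5 CPM at RT and at 14.7, 14.1, 20.3 and 13.5 CPM in the cold. Control RT 2 was far above any other library, and KO RT 3 was only just above the highest cold library of its genotype. Cold was 2.91-fold lower in control (log2 -1.54 ± 0.29, adjusted p = 0.00119) and 1.85-fold lower in KO (log2 -0.89 ± 0.27, adjusted p = 0.028). Without control RT 2 the control value was -0.98 (adjusted p = 0.0353). The KO call was lost without KO cold 1, KO cold 2, KO cold 4, KO RT 1 or KO RT 2, and without the muscle-rich libraries Psmb8 in KO was -0.46 (adjusted p = 0.516).

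Psmb10, the counterpart of Psmb7, was not among the members chosen for full values, and its libraries are given because it completes the set. It stood at 26.7 and 36.8 CPM in control RT and at 16.7, 17.9, 14.2 and 17.6 CPM in control cold. The KO libraries had 31.4, 16.1 and 17.8 CPM at RT and 13.5, 11.999, 18.6 and 15.8 CPM in the cold. The control groups were apart and the KO groups overlapped. Its log2 fold change was -0.92 ± 0.26 in control (adjusted p = 0.0174), lost without control RT 2 (adjusted p = 0.158), and -0.55 ± 0.25 in KO (adjusted p = 0.13).

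Psme1 and Psme2 encode the subunits of the interferon-inducible activator ring. Psme1 stood at 81.8 and 82.0 CPM in control RT and at 46.7, 44.5, 37.8 and 57.2 CPM in control cold. KO tissue held 79.0, 69.4 and 84.0 CPM at RT and 55.1, 58.4, 55.7 and 61.5 CPM in the cold. Cold libraries were below RT libraries in both genotypes, and 3 of the 4 control cold libraries were below every KO cold library. On the log2 scale the change was -0.82 ± 0.15 in control (adjusted p = 0.0013) and -0.43 ± 0.14 in KO (adjusted p = 0.0375). Psme1 overlaps Emc9 in the reference annotation, and the use of strand in counting is not given in the sources used here.

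Psme2 stood at 95.6 and 98.2 CPM in control RT and at 55.3, 61.2, 57.0 and 54.4 CPM in control cold. Among KO libraries it was 80.5, 90.1 and 99.7 CPM at RT and 74.7, 61.0, 66.9 and 68.9 CPM in the cold. No cold library reached an RT library, and KO cold 1 was the highest cold one. The log2 fold change was -0.77 ± 0.14 in control (adjusted p = 0.000841) and -0.41 ± 0.12 in KO (adjusted p = 0.0252). Psme2 has a near-identical copy in the mouse genome, so its counts are uncertain to the extent that reads were split. In KO the Psme1 call was lost without any of 5 single libraries, the Psme2 call without any of 4, and both without the muscle-rich libraries, where the values were -0.54 (adjusted p = 0.17) and -0.56 (adjusted p = 0.109). The other activators, Psme3 of the nucleus and Psme4, did not pass in either genotype: Psme3 had 0.40 ± 0.17 in control (adjusted p = 0.0879) and 0.35 ± 0.14 in KO (adjusted p = 0.106), and Psme4 had 0.30 ± 0.16 (adjusted p = 0.196) and 0.25 ± 0.14 (adjusted p = 0.241).

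The ratio of an immunoproteasome subunit's counts to those of its constitutive counterpart does not depend on library scaling. These pairs were chosen after the values had been seen and are given with no test. The log2 ratio of Psmb9 to Psmb6 was -2.84 ± 0.03 (SD, n = 2) in control RT, -4.32 ± 0.29 (n = 4) in control cold, -2.66 ± 0.21 (n = 3) in KO RT and -4.86 ± 0.32 (n = 4) in KO cold. For Psmb8 to Psmb5 it was -0.10 ± 1.02, -2.07 ± 0.52, -0.50 ± 0.36 and -2.10 ± 0.34 in the same order. For Psmb10 to Psmb7 it was -2.52 ± 0.43, -3.95 ± 0.13, -3.34 ± 0.46 and -4.02 ± 0.29. Cold and RT did not overlap within either genotype for the first 2 pairs, and for the last they overlapped in KO, where the lowest RT library was at -3.70 and the highest cold one at -3.62.

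**Figure D3:**
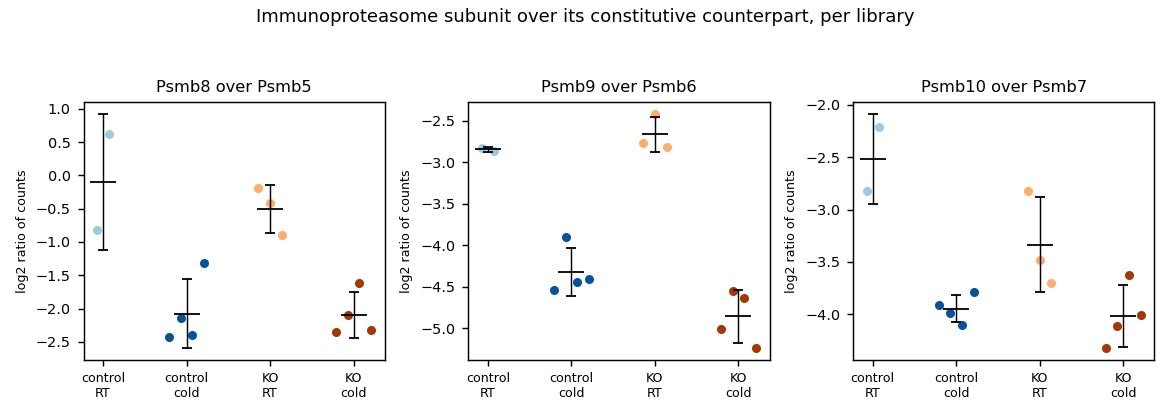
Log2 ratio of counts (y axes) of Psmb8 to Psmb5, Psmb9 to Psmb6 and Psmb10 to Psmb7 in each library (points), with group mean and SD as bars, for the 4 groups (x axes). The cold libraries lie below the RT libraries in all panels, except that the KO groups overlap for Psmb10 to Psmb7.

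Immune cells express the immunoproteasome at a high level, and in bulk tissue fewer cells of a type cannot be told apart from less RNA per cell. The 11 lymphocyte markers summed to 62.1 CPM in control RT 2 and to 5.76 to 19.5 CPM in the other 12 libraries. Ptprc, the pan-leukocyte gene, had 24 and 78 counts in control RT and 7 to 24 in the other groups, and the other 10 had at most 5 counts in any library, with Cd79a at 0 in all. The 9 macrophage markers summed to 110 to 311 CPM, highest in control cold 2, and of the 8 tested 1 rose in control cold and 1 in KO cold (0 and 1 without the muscle-rich libraries). Ptprc, the 1 gene of the lymphocyte list with enough counts to test, fell in control cold (-1.77) and had -0.45 in KO. Control RT 2 was the library with the highest sum of the lymphocyte list. Without it the median log2 fold change of the 5 inducible members in control was -0.80, with all 5 negative. That fit leaves 1 control RT library and does not separate the number of leukocytes from expression per cell. In KO, the lymphocyte sums were 10.6 to 19.5 CPM at RT and 7.30 to 11.3 CPM in the cold. As Ptprc is not particular to lymphocytes, these sums do not tell which leukocytes differed, and their part in the cold responses was not tested. The 6 fibroblast markers summed to 664 to 1317 CPM in KO RT and 542 to 638 CPM in KO cold, where 4 of them fell (0 without the muscle-rich libraries), and their part in the KO responses was not tested. In control the fibroblast markers summed to 865 and 916 CPM at RT and 496 to 1443 CPM in the cold, highest in control cold 2. For KO against control in the cold, all 6 fibroblast and all 8 tested macrophage markers were negative (median log2 fold changes -0.64 and -0.51). Of both lists 0 were called there, and their part in that comparison was not tested. Endothelial markers summed to 456 to 855 CPM over all libraries, smooth muscle markers to 448 to 612 CPM and erythrocyte markers to 1075 to 3303 CPM. Of the 6 endothelial markers 1 rose and 2 fell in control cold, and 1 rose and 0 fell in KO cold. The part of these markers in the cold responses was not tested.

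**Figure D4:**
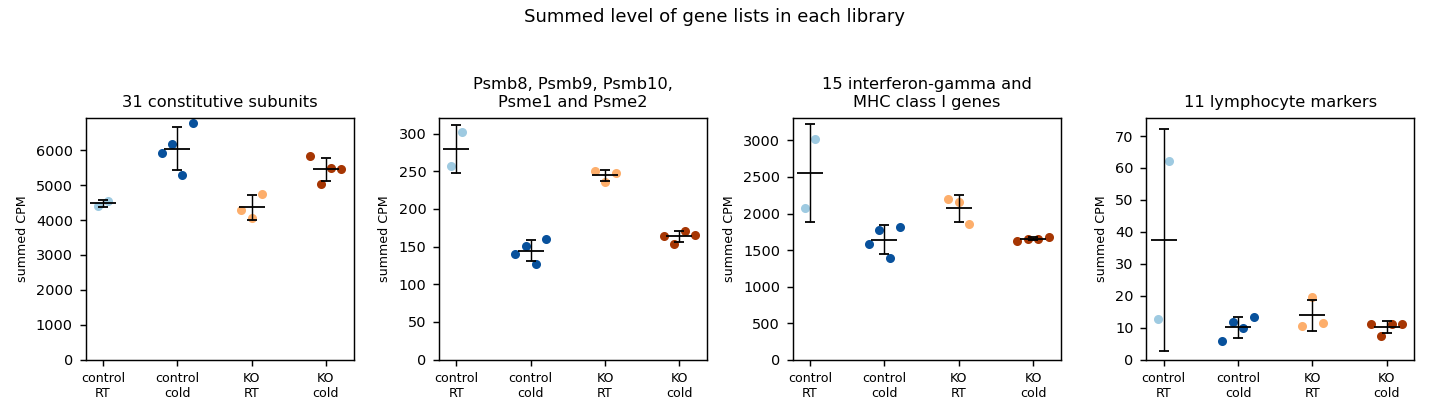
Summed CPM (y axes, from 0) of the 31 constitutive subunits, the 5 interferon-inducible members, 15 interferon-gamma and MHC class I genes and 11 lymphocyte markers in each library (points), with group mean and SD as bars. The constitutive sums are higher in every cold library than in any RT library, the inducible sums are lower, and 1 control RT library stands at 62.1 CPM in the lymphocyte panel.

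Across the groups, 26 of the 39 genes had every control cold library above both control RT libraries and 5 had every one below, against 19.8% and 20.6% of all genes tested. In KO 19 were above and 4 below, against 15.8% and 16.4%. Within groups the subunits tended to have their extremes in the same libraries, and whether all genes tested did so too was not examined. Control cold 4 was the highest of its group for 18 of the 31 constitutive subunits and control cold 3 the lowest for 17. KO cold 1 was the highest for 15 and KO cold 2 the lowest for 15, and KO RT 3 was the highest for 24 and KO RT 2 the lowest for 21.

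Few of these genes passed the test between KO and control in the cold, as few of all genes did. Of the 39, 2 passed the test, against 5.93% of all genes tested. None was higher in KO (2.44% of all genes), and both that passed, Psmd6 and Psmd14, were lower (3.49% of all genes). DESeq2 also called 2 members. The median log2 fold change of KO over control was -0.14, with 27 of 39 negative, against -0.01 over all genes. Among the 11 non-ATPase subunits 10 were negative and the median was -0.28, while the constitutive beta ring had 3 of 7 negative and a median of 0.01. At an unadjusted p under 0.05 there were 12 members (30.8%), against 20.1% of all genes.

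Psmd6, a lid subunit, was the member with the smallest p. In the cold the 4 control libraries were at 119, 136, 125 and 122 CPM, whereas the 4 KO libraries were at 90.6, 83.5, 97.3 and 85.8 CPM. At RT the control libraries were at 84.6 and 80.2 CPM, and those of KO were at 74.0, 70.0 and 94.0 CPM. The KO cold libraries lay near the RT level of both genotypes, and the control cold libraries lay above all others. KO was 1.41-fold lower in the cold (log2 -0.49 ± 0.12, adjusted p = 0.0193), and the call was lost without control cold 2, KO cold 2 or KO cold 4. Psmd6 rose with cold in control (0.61 ± 0.14, adjusted p = 0.00616) and had 0.17 ± 0.13 in KO (adjusted p = 0.382), and the test of that difference did not pass (-0.44 ± 0.19, adjusted p = 0.563).

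Psmd14, the deubiquitinase of the lid, lies outside the members chosen for full values and was singled out after its values were seen. In the cold the 4 control libraries were at 93.3, 109, 108 and 107 CPM, whereas the 4 KO libraries were at 94.2, 70.4, 70.3 and 76.8 CPM. The highest KO library lay above the lowest control library. KO over control in the cold was -0.42 ± 0.12 on the log2 scale (adjusted p = 0.0489), and the call was lost in 11 of the 13 fits that left out 1 library. Psmd13, another lid subunit, did not overlap between genotypes in the cold, with 105 to 133 CPM in control and 79.8 to 98.8 CPM in KO, and just missed the threshold (-0.41 ± 0.12, adjusted p = 0.0565). Without overlap in this comparison were 4 members with KO lower (Psmb1, Psmd2, Psmd6 and Psmd13) and 0 with KO higher, against 6.53% and 6.28% of all genes.

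Among the inducible members none passed between genotypes in the cold. Psme1 had 0.31 ± 0.13 (95% interval 0.03 to 0.60, adjusted p = 0.19) and Psme2 0.25 ± 0.12 (adjusted p = 0.24). Psmb8 had 0.02 ± 0.27, with an interval from -0.56 to 0.60 that leaves room for a change of either sign.

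At RT 0 of the 39 genes passed between genotypes, as did 0% of all genes tested with edgeR. At an unadjusted p under 0.05 there were 3 members (7.69%), against 3.12% of all genes. They were Psmb8 (-0.63 ± 0.28), Psmc4 (-0.53 ± 0.21) and Psmd13 (-0.34 ± 0.16). DESeq2 called 0 members and 3 genes in all. Without overlap were 2 members with KO higher and 5 with KO lower, against 8.68% and 7.96% of all genes. With 2 and 3 libraries the intervals were wide, such as -1.23 to -0.03 for Psmb8.

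**Figure D5:**
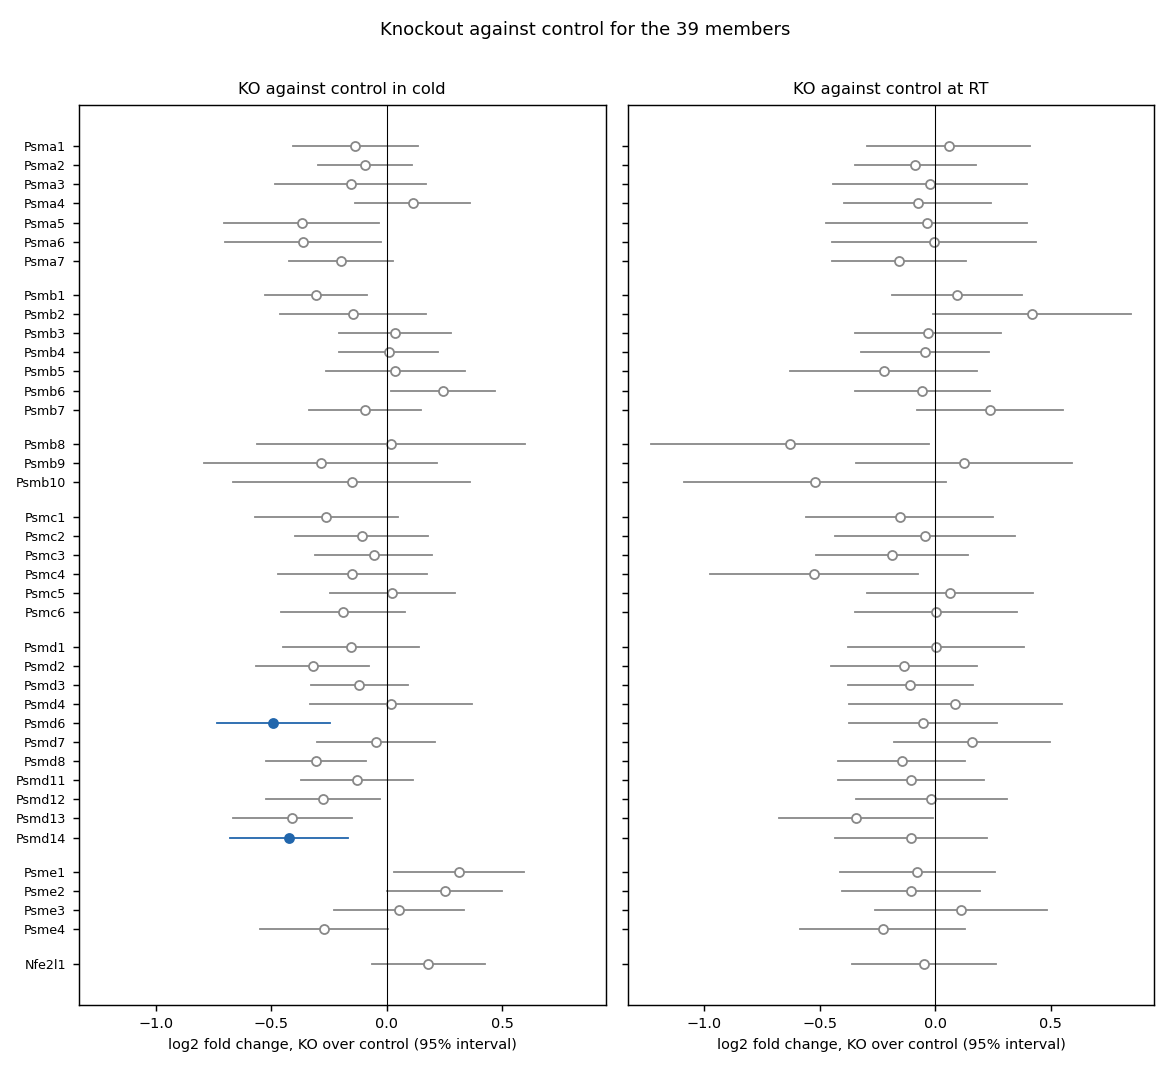
Log2 fold change of KO over control (x axis) with its 95% interval for the 39 genes (y axis, grouped by role) in the cold (left) and at RT (right). Filled blue points were called lower and open grey points did not pass. Only Psmd6 and Psmd14 are filled, both in the cold panel, and 10 of the 11 Psmd genes sit left of 0 there.

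The cold response of the 39 genes did not pass a test of difference between the genotypes. With edgeR 0 of 39 were called, the smallest adjusted p being 0.542, against 0.0181% of all genes (2 genes). DESeq2 called 0 members and 25 genes in all. At an unadjusted p under 0.05 there were 3 members (7.69%), against 8.25% of all genes. Their differences (KO minus control) were negative: Psmb1 (-0.40 ± 0.17), Psmb2 (-0.57 ± 0.25) and Psmd6 (-0.44 ± 0.19). The mean of Psmb1 was 176 CPM in control RT and 209 CPM in control cold. In KO it was 188 CPM at RT and 169 CPM in the cold, a change of the opposite sign. Over the 31 constitutive subunits the median difference was -0.11, with 24 negative, and all 11 non-ATPase subunits were negative. For Nfe2l1 the difference was 0.23 (95% interval -0.17 to 0.63).

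The genes around the pathway were described from lists fixed for the purpose. Of 16 tested assembly factors and accessory subunits or regulators, 0 passed in control cold against RT (3 at an unadjusted p under 0.05). In KO 2 of them fell, Psmd5, an assembly chaperone of the regulatory particle (-0.52 ± 0.17, adjusted p = 0.0356), and Uchl5, a proteasome-bound deubiquitinase (-0.55 ± 0.17, adjusted p = 0.0312), and without the muscle-rich libraries 0 passed in either genotype. Pomp, which matures the core particle and was picked out after its values were seen, was at 309 ± 30.8 CPM in control RT and 408 ± 37.3 CPM in control cold (0.40 ± 0.14, adjusted p = 0.0507). Pomp was at 348 ± 32.3 CPM in KO RT and 309 ± 40.0 CPM in KO cold, and KO over control in the cold was -0.40 ± 0.12 (adjusted p = 0.0507).

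Of 11 tested genes for the processing and turnover of NFE2L1, 1 rose and 3 fell in control cold. Nploc4, a cofactor of the VCP segregase that pulls NFE2L1 from the endoplasmic reticulum, rose from 38.6 ± 2.54 to 74.6 ± 7.30 CPM (0.95 ± 0.17, adjusted p = 0.000797). Ogt, the glycosyltransferase that modifies NFE2L1 (-0.62 ± 0.16, adjusted p = 0.0111), and Btrc, a ubiquitin ligase receptor that binds it (-1.14 ± 0.38, adjusted p = 0.0381), fell, as did Hcfc1. In KO cold 3 rose and 0 fell: Nploc4 (0.55 ± 0.15, adjusted p = 0.0147), its partner Ufd1 (0.44 ± 0.12, adjusted p = 0.0184) and Sel1l of the degradation machinery of the endoplasmic reticulum (0.61 ± 0.20, adjusted p = 0.0441). Without the muscle-rich libraries 1 rose and 0 fell in control, and 0 passed in KO.

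Between genotypes in the cold the same list had 3 genes higher in KO and 0 lower. Sel1l was at 106 ± 13.6 CPM (SD, n = 4) in control cold and 187 ± 59.5 CPM (n = 4) in KO cold (0.82 ± 0.19, adjusted p = 0.0169), and the groups overlapped. Btrc was at 3.58 ± 0.88 and 8.19 ± 2.03 CPM (1.17 ± 0.33, adjusted p = 0.0439) without overlap. Ogt was at 80.8 ± 11.8 and 113 ± 17.4 CPM (0.48 ± 0.14, adjusted p = 0.0484) with overlap. In the other 4 lists described here 0 genes passed in this comparison with edgeR, with 6 at an unadjusted p under 0.05, and at RT 0 passed in any of these 5 lists, again with 6 at an unadjusted p under 0.05.

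Small MAF proteins are the obligate partners of NFE2L1 on DNA. Of 7 tested genes for MAF partners, NFE2L1 relatives and repressors, 2 rose in control cold and 1 in KO cold (1 and 1 without the muscle-rich libraries). Maff stood at 4.09 ± 1.88 CPM in control RT and 54.2 ± 11.3 CPM in control cold (3.75 ± 0.32, adjusted p = 3.06e-06), and at 2.99 ± 1.24 CPM in KO RT and 37.4 ± 3.81 CPM in KO cold (3.60 ± 0.29, adjusted p = 1.59e-06). Mafg rose in control (0.76 ± 0.24, adjusted p = 0.0281), with overlapping groups. Nfe2l2, the relative of Nfe2l1 that answers oxidative stress, is given outside the naming rule and had 0.43 ± 0.19 in control (adjusted p = 0.103) and 0.32 ± 0.16 in KO (adjusted p = 0.189).

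Some genes that feed the proteasome also rose with cold. Ubb, a gene for polyubiquitin, rose in KO (0.85 ± 0.22, adjusted p = 0.0142) and had 0.48 ± 0.25 in control (adjusted p = 0.178). Of 11 tested shuttle receptors and aggregate-handling genes 5 rose and 0 fell in control, and 3 rose and 0 fell in KO. Without the muscle-rich libraries 1 rose in control and 0 in KO. Ubqln1, which carries ubiquitinated proteins to the proteasome, rose in control (0.78 ± 0.14, adjusted p = 0.000738) and in KO (0.35 ± 0.12, adjusted p = 0.0443), as did Rad23b, a shuttle of the same kind (0.78 ± 0.15, adjusted p = 0.00152, and 0.43 ± 0.13, adjusted p = 0.0296). Sqstm1, the autophagy receptor for ubiquitinated cargo, rose in KO (0.96 ± 0.29, adjusted p = 0.0282) and in control (1.16 ± 0.33, adjusted p = 0.0182), where its SD in the cold was 190 CPM around a mean of 374 CPM.

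Interferon-gamma and MHC class I genes went with the inducible subunits. Of 15 tested 11 fell and 0 rose in control cold, and 7 fell and 0 rose in KO cold. Without the muscle-rich libraries 10 fell in control and 1 in KO. Tap2, the peptide transporter subunit whose gene lies beside Psmb8 on chromosome 17, was at 91.9 ± 4.66 CPM in control RT and 24.4 ± 4.84 CPM in control cold (-1.90 ± 0.20, adjusted p = 9.36e-06). In KO Tap2 was at 79.3 ± 11.4 CPM at RT and 35.3 ± 7.46 CPM in the cold (-1.16 ± 0.17, adjusted p = 0.000268). The guanylate-binding proteins Gbp3 (-2.03 ± 0.28, adjusted p = 9.75e-05) and Gbp7 (-1.48 ± 0.22, adjusted p = 0.000184) fell in control, and in KO they fell with adjusted p = 0.000696 and adjusted p = 0.000722. The summed level of the 15 genes was 2077 and 3023 CPM in control RT and 1389 to 1816 CPM in control cold. It was 1860 to 2200 CPM in KO RT and 1626 to 1678 CPM in KO cold. The higher control RT value was that of control RT 2, the only control RT library in the fit without the muscle-rich libraries. The groups did not overlap between RT and cold in either genotype. Between the cold responses of the genotypes 0 of the 15 passed (2 at an unadjusted p under 0.05), and all 15 differences were positive (KO minus control), with a median of 0.31.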

How the data were processed

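RNA of 13 brown adipose tissue libraries was made with a QuantSeq 3′ kit, per the labels' protocols. The authors deposited raw counts per Ensembl gene (release 103, per the table's name). Named without role or parameters in the submitters' processing notes are GRCm39, limma, edgeR, HTSeq 0.12.3, STAR 2.7.10b, UMI-tools 1.1.2 and Trim Galore 0.6.7, and the use of strand and of molecular identifiers is not given in the sources used here. The table had 55632 lines, and 275 that repeated another line's identifier and counts were left out. Library totals had a median of 1800685 counts.

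These counts went into edgeR 4.0.16 (R 4.3.3): filterByExpr (minimum count 10, 11073 genes), TMM scaling, 1 quasi-likelihood fit over 13 libraries with a coefficient per group (common biological coefficient of variation 16.1%), 5 two-sided contrasts, and Benjamini-Hochberg adjustment over all genes tested. CPM with and without TMM factors differed by 0.939 to 1.09 times. Intervals are 95%. Replicates differed by more than sampling noise (chi-square over its degrees of freedom, 1.97 to 6.66). The fit was tested on simulated counts in which 200 genes were changed. In cold against RT in control, on 11045 genes, 3.17% of genes changed 1.5-fold, 45.3% changed 2-fold and 89.1% changed 4-fold were recovered. In the data 25.2% of all genes tested were called in this comparison, which makes the adjustment less strict, so these shares do not give the recovery there.

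The members and all lists were chosen with earlier results of these data known. Values in every library are given for Nfe2l1 and, per role, for up to 3 members with the smallest p in the genotype comparison in the cold and up to 3 in the cold response of control, plus members past the threshold in any contrast, smallest p first, 20 in all. From each pathway list up to 3 genes past the threshold with the smallest p were named per contrast, except in the list of ubiquitin and E1 genes. Of that list only Ubb is named, and a gene that was called higher in control cold is not. The pathway symbols Aup1, Nbr1 and Paaf1 were not matched. The counts of the list of ubiquitin and E1 genes are not reported here. The 8 marker lists also included endothelial, fibroblast, smooth muscle and erythrocyte genes. Alternatives were relative log expression scaling, DESeq2 1.42.0, other count filters, a fit of only the groups compared, a replicate block, leaving out each library, and, chosen after seeing the data, leaving out the 3 libraries richest in muscle markers. The count annotation is of GRCm39 and the reference of GRCm38, so member positions are given as chromosomes, and promoter coordinates are those of RefSeq.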

Additional observations from a re-analysis of the deposited data

Results flagged for a closer look

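Among 78 sets of 4 libraries (each of the 39 genes in control cold and in KO cold), 4 (5.13%) had a library whose gap to the nearest other exceeded Dixon's 95% critical value for a group of 4, and chance flags about 1 in 20. Psmb4 stood at 369 CPM in control cold 4, where the other 3 libraries were at 305 to 313 CPM. Psmb8 stood at 20.3 CPM in KO cold 3, above 13.5 to 14.7 CPM in the others. Psmc6 stood at 233 CPM in KO cold 4, below 269 to 276 CPM. Psmd14 stood at 93.3 CPM in control cold 1, below 107 to 109 CPM.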

How the results depend on the processing

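Relative log expression scaling and the stricter count filter kept all 10 counts of called members within 1.5 times, as did DESeq2. Members lower in KO against control in the cold were 2 by default, and 1 with no filter on low counts, 1 with only the groups compared, 1 with the replicate block, 1 without the 3 muscle-rich libraries and 0 to 2 when 1 library was left out. Members higher in cold against RT in control were 16, and 7 with only the groups compared, 2 without the muscle-rich libraries and 3 to 18 when 1 library was left out. Over all genes, 1401 were called higher, 819 with only the groups compared, 422 without the muscle-rich libraries and 529 without control RT 1, which left 3 members. Members higher in KO cold against RT were 11, and 15 with only the groups compared, 0 without the muscle-rich libraries and 6 to 14 when 1 library was left out. Over all genes, 1044 were called higher, 1249 with only the groups compared, 223 without the muscle-rich libraries and 609 without KO RT 1. Members lower in KO cold against RT were 4, and 2 with no filter, 1 without the muscle-rich libraries and 1 to 4 when 1 library was left out. Over all genes, 9.45% were called lower in KO cold against RT, and 5.2% with no filter. The share of all genes lower in KO against control in the cold was 3.49% by default. It was 2.36% with no filter, 3.45% with only the groups compared and 2.95% with the replicate block. For the difference of responses, a fit of only the groups compared is the same fit. No call of a member reversed its direction under these alternatives, but 4 medians changed sign among those of the 39 members, the 31 subunits and the 5 inducible members. For KO against control at RT, the median log2 fold change without the muscle-rich libraries went from -0.05 to 0.04 over the 31 subunits and from -0.06 to 0.03 over the 39 members. For KO against control in the cold, that of the 5 inducible members went from 0.02 to -0.03, -0.11 and -0.13 without control cold 1, control cold 3 and KO cold 3. For the difference of responses, that of the 39 members went from -0.06 to 0.003 and 0.01 without KO cold 2 and KO RT 3. The cause of these changes was not tested, beyond the smaller number of libraries in fits that leave some out. The immunoproteasome subunits had few counts, as few as 10 in a library for Psmb9, 18 for Psmb8 and 22 for Psmb10.

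The labels give the groups the same replicate numbers. Over 16 same-numbered pairs the correlation of deviations from the group means was -0.227 to 0.333, with 3 over 0.1, so the numbers were not taken as pairs. With the replicate block, 11 members were higher in control cold (16 without it), 8 in KO cold (11) and 3 lower in KO cold (4). Over all genes tested, the shares called were 9.81% (12.7% without it), 7.45% (9.43%) and 7.26% (9.45%) in the same order.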
